A study of Mus musculus with 4 samples.

Results

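The genes described here are interferon response genes of the mouse: antiviral effectors, nucleic acid sensors, the STAT and IRF factors that switch them on, and interferon-induced GTPases. They were taken from a list of 31 symbols, and 29 of them had a probe set with a single gene symbol, out of 22180 genes measured in this way. Gbp2 shared its probe set with another symbol and Ifi44 had no listed probe set, so neither has a value here.

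RNA was measured on 4 Affymetrix arrays, 1 for each group of BALB/c mast cells, with no replicates. Intestinal mast cells came from naive mice, where cells with both FceRI and c-Kit were sorted out of the small-intestinal lamina propria. The 3 other groups were bone marrow-derived mast cells (BMMCs), which had been grown for weeks in 10 ng/ml interleukin-3 together with 10 ng/ml stem cell factor. They differed in the last 6 days of culture. One group was kept on CHO cells, a hamster ovary line, that carried the mouse Notch ligand Dll1, and was then selected for c-Kit with magnetic beads. A second group received TGF-beta1 at 5 ng/ml, and the control group stayed in normal medium. No selection step is given for those 2 groups, and the labels do not say how many mice or cultures went into each RNA. The hamster feeder cells, the beads and Dll1 itself came together on 1 array and cannot be told apart, and neither can tissue source, digestion and sorting on the intestinal array.

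Interferons are secreted proteins that warn cells of viruses. Type I interferon binds the receptor made of Ifnar1 and Ifnar2, whose kinases Jak1 and Tyk2 activate STAT factors, among them Stat2. Together with Irf9, Stat2 is part of a complex that binds a DNA element made of repeated GAAA blocks in front of target genes. Interferon gamma acts through another receptor, Ifngr1 and Ifngr2, and leads to a different DNA element, called GAS. Many cells keep a low tonic level of these genes without infection, and mucosal tissues are known for such a tonic level. In BALB/c mice the Mx1 gene carries an inactivating deletion, as in most laboratory strains, so its RNA says nothing of antiviral function.

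Levels are log2 signals of a probe set, and they are compared between arrays for 1 gene, never between genes. For each array, a background limit came from odour, pheromone and taste receptor genes, which mast cells should lack. It stood at 5.11 on the intestinal, 5.13 on the Dll1, 5.21 on the TGF-beta1 and 5.12 on the control array. A gene was counted as higher or lower when it differed at least 2-fold, with values under the limit raised to it. Genes under the limit on both arrays were not tested. A fold against an array below the limit is a lower bound, written "at least". With 1 array in each group no difference has a replicate check or a p-value. As a rough gauge, the SD between the differences of 2 probe sets of the same gene was 0.48 (log2) for intestinal minus control, 0.34 for Dll1 minus control and 0.24 for TGF-beta1 minus control. It was 0.39 for intestinal minus Dll1 and 0.34 for Dll1 minus TGF-beta1. The 2 probe sets can cover different transcripts of a gene, so this SD is not measurement error alone. Both read the same RNA, so it leaves out variation between samples. The mast cell label held on every array, with Kit at 11.75, 12.54, 12.22 and 12.65 on the intestinal, Dll1, TGF-beta1 and control arrays, and Fcer1a and Ms4a2 also far above the limit on all 4. Each of these genes was lowest in intestinal cells, with differences from control of -0.90 for Kit, -0.74 for Fcer1a and -0.87 (log2) for Ms4a2. Over 7 measured mast cell markers the median difference of intestinal from control cells was -0.63. Between 50.7% and 55.6% of all genes were above the limit on each array. These are bulk measurements, in which a smaller share of cells that express a gene and less of its RNA in each cell cannot be told apart.

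Promoter sequence from RefSeq (GRCm38.p6, from 250 bases before to 50 bases after the annotated start) was matched to 23 of the 31 listed genes, that is to all but Gbp4, Mx1, Mx2, Oas2, Parp14, Rtp4, Usp18 and Zbp1. The interferon-stimulated response element was searched on both strands as GAAANNGAAA, where N is any base, and 14 of the 23 promoters held it (60.9%), against 3.99% of 27025 genes with a promoter of the same length. The GAS element was searched as TTCNNNGAA, which reads the same on both strands, and 5 of the 23 held it (21.7%), against 9.55% of the genes. In the promoters of Bst2 and Ifitm3 a GAS match overlapped an interferon match. The stretches below are shown because they set members with a wide range over the arrays beside members with a narrow range or with values at or near background. Capitals mark the interferon motif, which appears as TTTC blocks where it lies on the other strand. Each is printed in the direction of the gene.
Apol9b (chr15:77729003-77729082, plus strand): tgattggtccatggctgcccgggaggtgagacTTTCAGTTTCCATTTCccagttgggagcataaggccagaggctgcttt
Isg15 (chr4:156200846-156200925, minus strand): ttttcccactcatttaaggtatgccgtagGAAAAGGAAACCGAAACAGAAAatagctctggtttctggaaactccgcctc
Ifitm3 (chr7:141010715-141010794, minus strand): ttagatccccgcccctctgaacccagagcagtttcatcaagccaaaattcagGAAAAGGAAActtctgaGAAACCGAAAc
Ifih1 (chr2:62646206-62646235, minus strand): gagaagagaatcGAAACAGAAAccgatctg
Trim30a (chr7:104446096-104446175, minus strand): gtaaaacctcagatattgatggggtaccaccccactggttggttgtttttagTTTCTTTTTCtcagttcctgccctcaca
Irf9 (chr14:55603905-55603984, plus strand): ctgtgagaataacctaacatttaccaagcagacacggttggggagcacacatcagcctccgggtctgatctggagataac
Stat2 (chr10:128270248-128270327, plus strand): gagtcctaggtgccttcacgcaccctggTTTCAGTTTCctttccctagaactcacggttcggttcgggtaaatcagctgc
Ifit1 (chr19:34640759-34640838, plus strand): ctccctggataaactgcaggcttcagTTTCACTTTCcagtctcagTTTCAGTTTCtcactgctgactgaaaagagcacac
Cxcl10 (chr5:92349058-92349137, minus strand): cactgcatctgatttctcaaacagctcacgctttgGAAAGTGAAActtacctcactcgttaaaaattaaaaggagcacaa

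The first 4 stretches belong to the members that hold the motif and varied most over the arrays, by 5.16 (log2) for Apol9b, 2.46 for Isg15, 2.15 for Ifitm3 and 1.97 for Ifih1. Trim30a and Irf9, above background on every array, varied least among the members with a promoter entry, by 0.24 and 0.21, and Irf9 has no match in its window. Stat2, Ifit1 and Cxcl10 were added after their values were seen. Ifit1 was below background on every array and Cxcl10 on all but the intestinal one, so the background floor limits how far their values can range. Isg15 carries 3 overlapping copies that begin at positions -78, -72 and -66 from its start. The match of Stat2 lies farther out, beginning at -222, and those of Ifitm3 and Ifih1 lie just behind the start. A match describes the letters only, and binding was not measured.

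**Figure D1:**
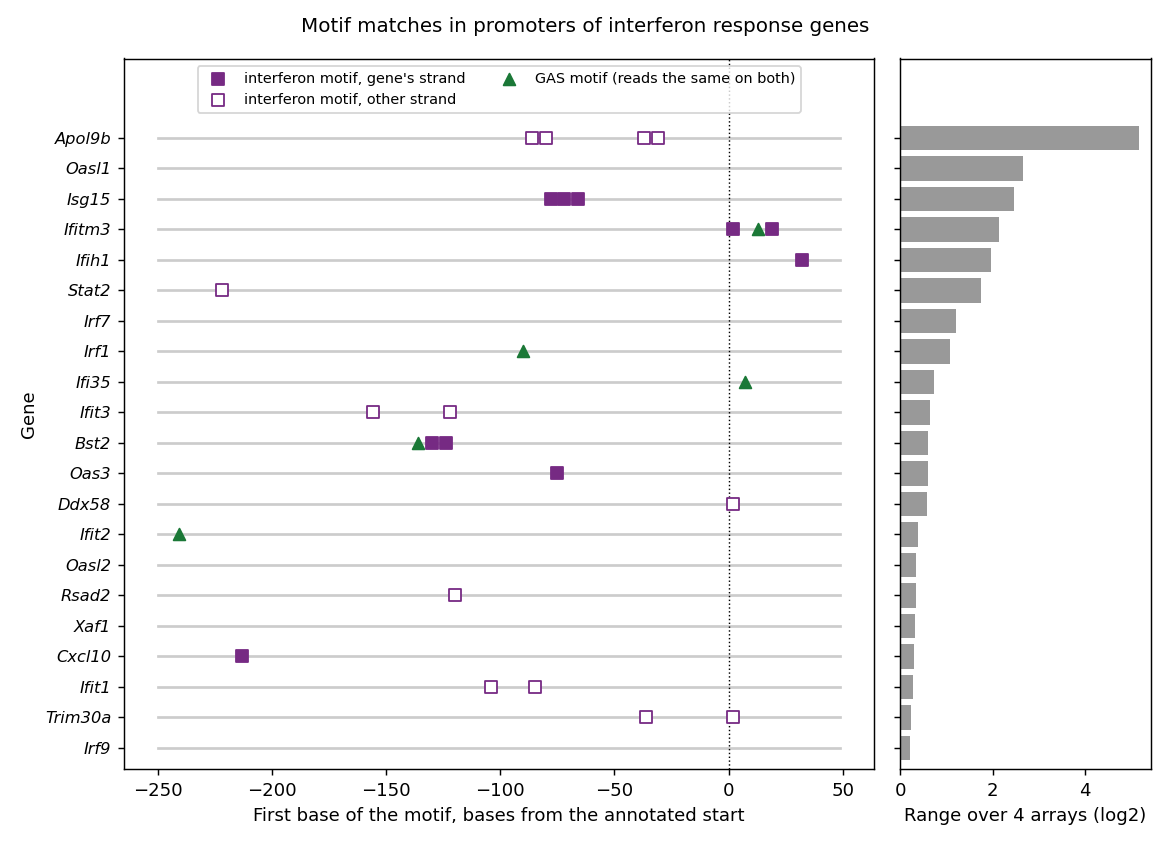
Positions of motif matches in the promoter windows of the 21 measured genes with an entry, as bases from the annotated start (0, dotted), with filled squares for the interferon motif on the gene's strand, open squares for the other strand and triangles for GAS; bars at the right give each gene's range of log2 signal over the 4 arrays. Matches stand both in genes with a wide range, such as Apol9b and Isg15, and in a gene with a narrow one, Trim30a, as well as in Ifit1, which is below background on every array, and Oasl1 has none; where a gene has several annotated starts, matches of all of them are drawn.

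The 29 genes did not share 1 pattern. Of them, 18 were above background on every array, 7 on some and 4 on none. Of the 25 above background anywhere, 14 had their highest value on the intestinal, 5 on the Dll1, 4 on the TGF-beta1 and 2 on the control array. Over all genes above background anywhere, the shares were 29.8%, 26.8%, 17.5% and 26% in the same order. Oas3, Ifit2 and Cxcl10 entered this count only through the intestinal array, under which they were then counted. Oas2 was counted under TGF-beta1, where its value (5.15) is below the limit. Some margins are small, as for Trim30a (6.16 in intestinal cells against 6.12 with Dll1), so the count is a description only. The range over the 4 arrays was at least 1 (log2) for 12 genes and under 0.5 for another 12.

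Among the nucleic acid sensors, Oasl1, an oligoadenylate synthetase-like protein without enzyme activity that binds RNA, had 8.04 in intestinal mast cells, against 5.46 with Dll1, 5.38 with TGF-beta1 and 5.56 in control BMMCs. The intestinal array alone stood out, 5.59-fold above control, while the Dll1 and TGF-beta1 arrays lay within 0.17 (log2) of control. Ifih1, the sensor of long double-stranded RNA also called MDA5, had 7.52 in intestinal cells, 6.54 with Dll1, 5.55 with TGF-beta1 and 5.73 in control cells. It was 3.45-fold higher in intestinal than in control cells, and the Dll1 array lay in between, 0.81 (log2) above control and short of 2-fold. Ddx58, the related sensor RIG-I for short RNA ends, had 7.84, 7.71, 7.26 and 7.43 on the intestinal, Dll1, TGF-beta1 and control arrays, a spread of 0.58 with no 2-fold difference. Zbp1, a sensor of left-handed nucleic acid that can start cell death, had 6.24 in intestinal cells, was below background with Dll1 (5.11) and TGF-beta1 (5.07), and had 5.35 in control cells. It was at least 2.16-fold higher in intestinal than in Dll1-cultured cells, and 1.86-fold above control.

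Of the enzymatic oligoadenylate synthetases, which make the activator of RNase L, the members Oas2 and Oas3 stayed at or near background. Among the related Oas1 genes, which are not members and were named after their values were seen, Oas1a had no probe set with a single symbol. Oas1b was above background with TGF-beta1 (5.36) and in control cells (5.89), and Oas1c with Dll1 (5.27) and in control cells (5.27). The other measured Oas1 genes were below background on every array. Oas2 had 4.97, 5.13, 5.15 and 5.11 on the intestinal, Dll1, TGF-beta1 and control arrays, and Oas3 had 5.34, 5.00, 4.75 and 4.88. Oas3 was above its limit on the intestinal array and Oas2 on the Dll1 array, each by a small margin. Oasl2, an enzymatically active relative of Oasl1, was below background on every array, between 4.54 and 4.88.

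The Ifit proteins bind viral RNA ends and block their translation, and their genes belong to the most inducible interferon targets. Ifit1 had 5.10 in intestinal cells, 4.88 with Dll1, 4.84 with TGF-beta1 and 5.06 in control cells, below background on all 4 arrays although its promoter holds a pair of matches. Ifit2 had 5.19, 4.82, 4.93 and 4.80 in the same order and passed the limit on the intestinal array alone. Ifit3 was above background everywhere, with 6.19, 6.29, 6.21 and 5.65, so that control was the lowest array and the other 3 lay 0.54 to 0.64 above it. Ifit genes resemble each other in sequence, and how far their probes are shared was not tested.

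Isg15, the ubiquitin-like protein that is attached to other proteins after interferon, had 7.59 in intestinal cells, 5.69 with Dll1, 5.12 with TGF-beta1 (below background) and 5.33 in control cells. Intestinal cells stood 4.77-fold above control and 3.72-fold above the Dll1 array. Usp18, which removes Isg15 from proteins and dampens the type I receptor, ran the other way, with 6.38 in intestinal cells, against 7.67 with Dll1, 7.37 with TGF-beta1 and 7.61 in control cells. It was 2.35-fold lower in intestinal than in control cells and 2.45-fold lower than with Dll1. Both genes are common interferon targets, and on these arrays Isg15 was highest and Usp18 lowest in the same sample.

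Of the factors that transmit the signal, Stat2 had 8.12 in intestinal cells, 6.70 with Dll1, 8.39 with TGF-beta1 and 8.44 in control cells. The Dll1 array stood apart, while the other 3 differed by at most 0.32 (log2). With Dll1, Stat2 was 3.35-fold lower than in control cells and 3.22-fold lower than with TGF-beta1. Its DNA-binding partner Irf9 had 7.71, 7.76, 7.55 and 7.58 in the same order and did not move with it. Irf7, the amplifier of interferon alpha production, had 6.73 in intestinal cells, against 5.53 with Dll1, 5.77 with TGF-beta1 and 5.62 in control cells. Irf1, a factor strongly induced by interferon gamma, had 7.00 in intestinal cells, against 6.03, 5.93 and 5.96 on the Dll1, TGF-beta1 and control arrays. Irf7 was 2.15-fold and Irf1 2.07-fold higher in intestinal than in control cells, both close to the 2-fold limit, and Irf1 fell below it when array medians were subtracted.

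Gbp4, a guanylate-binding protein of the family of interferon-induced GTPases that attack vacuoles of intracellular microbes, was highest in control BMMCs and lower on every other array. It had 6.49 in intestinal cells, 5.71 with Dll1, 7.71 with TGF-beta1 and 9.31 in control cells. The differences from control were 7.02-fold for intestinal cells, 12.1-fold for Dll1 and 3.02-fold for TGF-beta1, all downward. All 3 rest on the same control array. Without that array, Gbp4 was still 3.99-fold lower with Dll1 than with TGF-beta1. Mx1 and Mx2, dynamin-like GTPases that block influenza and other viruses in strains with intact genes, were below background on every array, Mx1 between 4.37 and 4.58 and Mx2 between 4.69 and 4.87.

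The cluster on chromosome 5 that holds Gbp4 has 6 Gbp genes in the RefSeq order Gbp8, Gbp9, Gbp4, Gbp10, Gbp6 and Gbp11, and it was laid out after the value of Gbp4 was seen. Gbp10, beside Gbp4, had 6.87 in intestinal cells, 6.49 with Dll1, 7.53 with TGF-beta1 and 8.43 in control cells, the same order of arrays as Gbp4. It was 2.94-fold lower in intestinal cells and 3.84-fold lower with Dll1 than in control cells, while TGF-beta1 was 1.86-fold lower. Gbp11 was above background in control cells alone (5.89), Gbp9 had 5.28, 5.23, 5.85 and 6.00 on the intestinal, Dll1, TGF-beta1 and control arrays, and Gbp8 had 5.64, 4.59, 4.54 and 5.71, below background with Dll1 and TGF-beta1. Gbp6 was below background on all 4. In the other 5 genes the control array gave the highest value, by only 0.07 for Gbp8. These genes are close copies of each other, and how far their probes are shared was not tested. The Gbp genes measured on chromosome 3 shared no order. Gbp7 had 6.97, 7.38, 7.36 and 7.45 on the intestinal, Dll1, TGF-beta1 and control arrays, and Gbp2b had 5.94, 5.79, 5.27 and 5.84. Gbp5 had 5.65 in intestinal cells and 5.27 with Dll1 and was below background with TGF-beta1 (4.64) and in control cells (4.67). Gbp3 alone counted against control, with 6.42 in intestinal cells, 5.35 with Dll1 and values below background with TGF-beta1 (5.14) and in control cells (4.96), at least 2.46-fold higher in intestinal than in control cells.

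**Figure D2:**
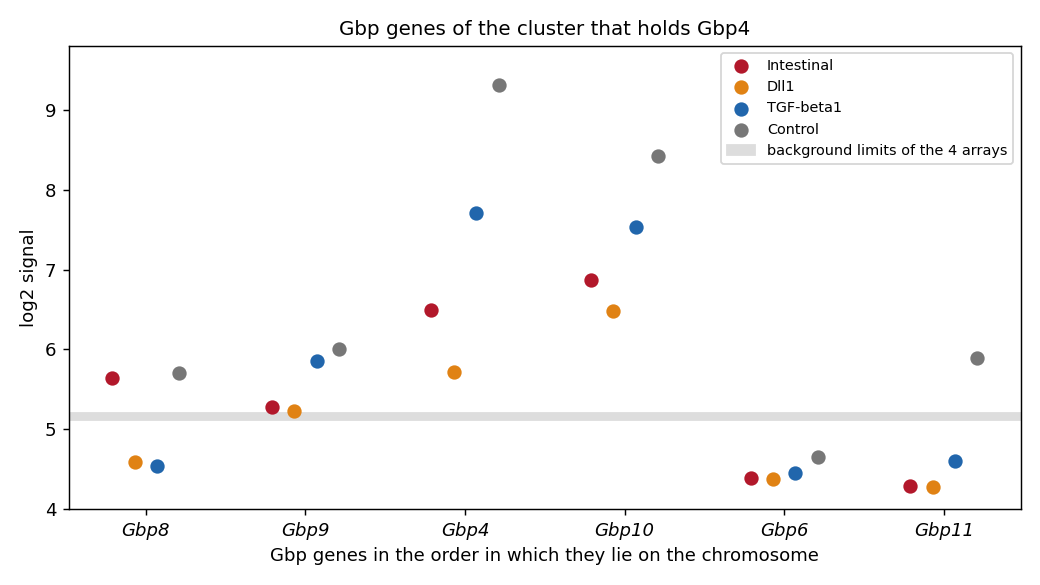
Signal (log2, vertical axis) of the 6 Gbp genes around Gbp4, in chromosomal order, with 1 point for each array and the 4 background limits as a grey band. Control is the highest point in each gene above the band, and Gbp4 reaches 9.31 there, against 5.71 on the Dll1 array; heights are comparable within a gene only.

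Apol9b, an apolipoprotein L-like gene that interferon induces in the mouse, differed most of all members. It had 9.92 in intestinal cells and 6.35 with TGF-beta1, and was below background with Dll1 (4.96) and in control cells (4.76). Intestinal cells were at least 28.0-fold above control and at least 27.7-fold above the Dll1 array, and TGF-beta1 was at least 2.36-fold above control. Apol9a, a near-identical neighbour that is not among the 29 genes, had 8.66 in intestinal cells, 5.73 with Dll1, 6.17 with TGF-beta1 and 5.95 in control cells. The pair can share probes, so the separate levels are uncertain, and for TGF-beta1 they differ, since Apol9a was only 1.16-fold above control.

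Ifitm3, a membrane protein that traps viruses in endosomes, had 8.27 in intestinal cells, 9.44 with Dll1, 10.41 with TGF-beta1 and 9.31 in control cells. TGF-beta1 was 2.15-fold above control and intestinal cells were 2.06-fold below it, and the Dll1 array differed from control by 0.13 (log2). Its relative Ifitm1 had 6.38, 6.32, 7.37 and 8.15 in the same order. Ifitm1 was, like Ifitm3, lower in intestinal than in control cells, by 3.42-fold. It was also 3.56-fold lower with Dll1 than in control cells, and with TGF-beta1 it differed from control by -0.78 (log2). Rtp4, a chaperone of G protein-coupled receptors, had 6.53 in intestinal cells, 5.67 with Dll1, 5.60 with TGF-beta1 and 5.25 in control cells, and was 2.43-fold higher in intestinal than in control cells.

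The other effectors varied by less than 2-fold between any of the arrays compared. Bst2 (tetherin, which holds budding virus at the cell surface) had 7.19, 7.53, 7.80 and 7.72 on the intestinal, Dll1, TGF-beta1 and control arrays. Ifi35, a partner of the interferon-induced protein Nmi, had 7.71, 8.44, 8.16 and 8.20, and its second probe set had 5.38, 5.62, 5.43 and 5.57, lowest in intestinal cells on both. Parp14, an ADP-ribosyltransferase, ranged from 7.05 to 7.46, Trim30a, a TRIM protein that restrains inflammatory signalling, from 5.92 to 6.16, and Xaf1, which promotes apoptosis, from 5.56 to 5.88. Rsad2 (viperin, an enzyme that makes a chain-ending nucleotide) lay between 5.16 and 5.49, close to the limits. Cxcl10, the chemokine that attracts activated T cells, had 5.29 in intestinal cells and was below background with Dll1 (5.11), TGF-beta1 (5.09) and in control cells (4.99).

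**Figure D3:**
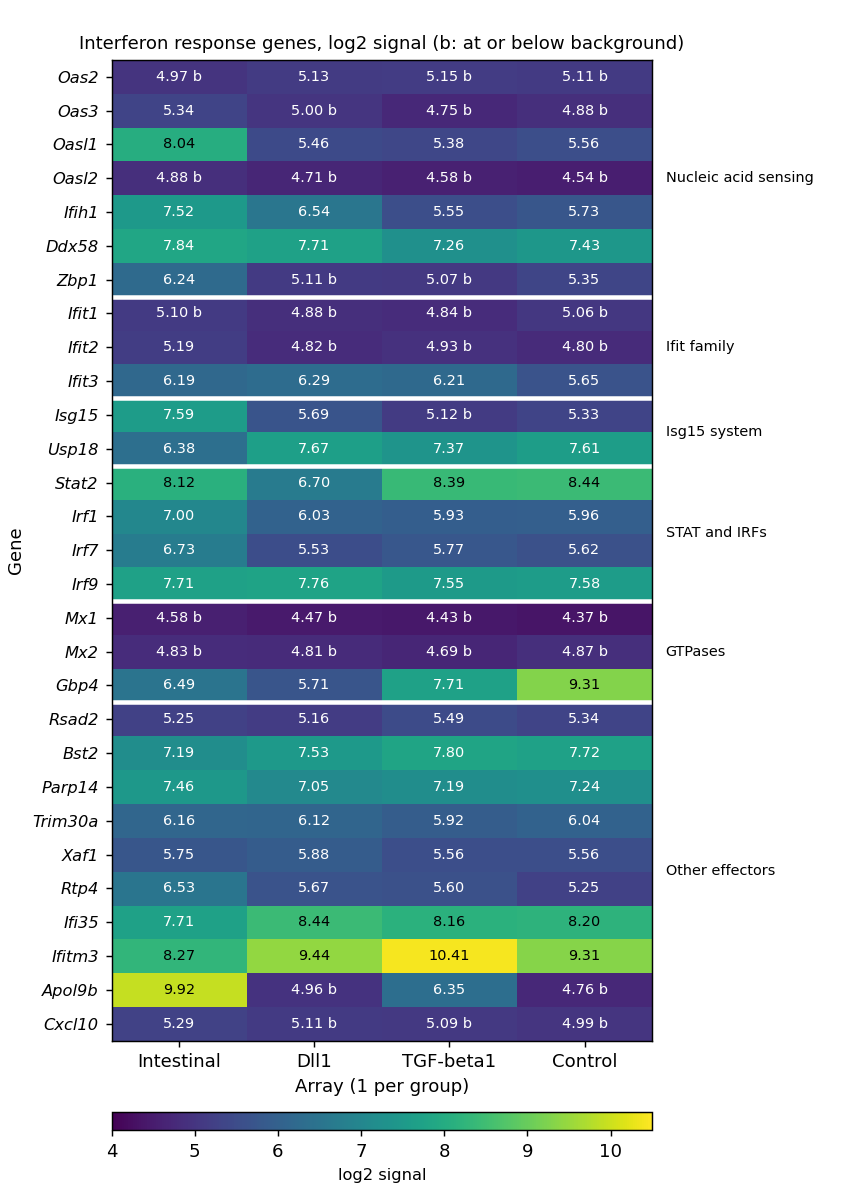
Signal (log2) of the 29 measured genes, in rows by role, on the 4 arrays in columns; the letter b marks values at or below that array's background limit, and colours are to be read along a row. Oasl1, Ifih1, Isg15 and Apol9b are brightest in the intestinal column, Gbp4 in the control column, and Stat2 is dimmest in the Dll1 column, while Mx1, Mx2, Ifit1 and Oasl2 are below background throughout.

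Intestinal mast cells were compared with control BMMCs to see how tissue cells differ from cultured ones, and the response genes did not move together. Of the 29 genes, 7 were at least 2-fold higher in intestinal cells, which were Apol9b, Oasl1, Isg15, Ifih1, Rtp4, Irf7 and Irf1, and 3 were lower, Gbp4, Usp18 and Ifitm3. Another 14 stayed within 2-fold and 5 were below background on both arrays. Over all 12722 genes tested in this comparison, 4.47% were higher and 6.74% lower. The share of higher members (7 of 24 tested) lay above that of all genes and that of lower ones (3 of 24) nearer to it. The members were chosen with earlier results of these data known, so this excess is no independent result. Apol9b, Oas3, Ifit2 and Cxcl10 were tested only because they were above background on the intestinal array. In the wider pathway list described below, 5 of 100 tested genes were higher and 9 lower. The median difference of the 29 was 0.22 (log2), against 0.0044 over all genes. With a 3-fold limit, Apol9b, Oasl1, Isg15 and Ifih1 counted as higher and Gbp4 as lower. Irf7 and Rtp4 no longer counted with a background limit at the 99th percentile of the receptor genes.

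Markers of other cells moved with this comparison. Of 13 measured T, NK and innate lymphoid cell markers, 11 were above background in intestinal and 4 in control cells, and 6 were higher. Their summed linear signals were 6383 and 3713. Gzmb alone, at 11.77 in intestinal and 11.70 in control cells, makes up most of both sums, which therefore understate the rise of the others. Gzma, a granzyme, had 10.33 in intestinal against 4.62 in control cells, and the T cell receptor part Cd3g 8.84 against 4.55. Of 13 macrophage and dendritic cell markers, 11 against 5 were above background, with summed signals of 4454 in intestinal and 1154 in control cells. Of these markers, 4 were higher, led by Itgax (11.19 against 4.86) and C1qb (7.21 against 4.95), while C1qc and Siglech stayed below background. Cx3cr1, within 2-fold (10.35 against 9.44), makes up most of the control sum, and Itgax most of the intestinal one. Adgre1, Cd68 and Lyz2 were also within 2-fold. Of 14 epithelial markers, 10 against 3 were above background, with sums of 1937 and 433, led by Cdh1 (10.12 against 6.16) and Muc2 (7.14 against 5.32), while Epcam, Vil1 and Krt19 were below background on every array. Cdh1 makes up most of the intestinal sum and was above background on all 4 arrays, the BMMC cultures included. Of 6 B and plasma cell markers, 5 against 2 were above background, and 1 was higher, Jchain (6.99 against 4.61, at least 3.67-fold). Of 8 stromal markers 5 were above background on each array, and Pdgfrb was 6.80-fold higher in intestinal than in control cells (8.39 against 5.62). Of 8 eosinophil and basophil markers, 2 were higher and 1 lower, with Mcpt8 at 5.41-fold higher and Cd200r3 at 13.8-fold lower in intestinal cells. Of 9 neutrophil markers, Ly6g alone counted, and it was lower. Immediate early genes, which respond to handling, were higher in intestinal than in control cells for 21 of 23, with sums of 40734 and 2925. The part of these cells and of handling in the values of the response genes was not tested.

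Dll1-cultured and control BMMCs were compared to see what the Notch ligand culture changed, and 2 members were lower and none higher. Stat2 and Gbp4 were the lower ones, 19 members stayed within 2-fold and 8 were below background on both arrays. Over the 12761 genes tested, 1.64% were higher and 1.78% lower. With array medians subtracted, the numbers over all genes were 175 higher and 316 lower, in place of 209 and 227, while the same 2 members counted as lower. The median difference of the 29 was 0.08 (log2), against 0.024 over all genes, and -0.0038 with array medians subtracted. Ifih1 (0.81) and Ifit3 (0.64) had the largest upward differences. Neutrophil markers moved with this array, as all 9 were above background with Dll1 and 3 in control cells, with summed signals of 1726 and 337, and 5 were higher, led by S100a8 (8.85 against 4.58) and Elane (8.76 against 4.87). Ly6g went the other way and was 2.07-fold lower with Dll1 (5.35 against 6.40). Eosinophil and basophil markers were above background for 6 of 8 with Dll1 and 4 of 8 in control cells, with sums of 6393 and 1063, and 4 were higher, led by Prg2 (11.45 against 5.40) and Prg3 (9.55 against 4.68). Ccr3 and Cd200r3 stayed within 2-fold, and neither Siglecf nor Il5ra was above background with Dll1 or in control cells. T, NK and innate lymphoid markers were above background for 4 of 13 in both, with sums of 5453 with Dll1 and 3713 in control cells. Gzmb, within 2-fold (12.19 against 11.70), makes up most of both sums. Of the 13 markers, 3 were higher with Dll1, Gzma at least 7.00-fold, Nkg7 4.32-fold and Il7r 2.06-fold, while Cd3e and Cd3g were below background on both arrays. Immediate early genes were higher for 13 of 23. The part of these cells and of handling in the values of the response genes was not tested.

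TGF-beta1-treated and control BMMCs were compared to see what the cytokine changed, and Apol9b and Ifitm3 were higher and Gbp4 lower. Another 18 members stayed within 2-fold and 8 were below background on both arrays. Over the 12023 genes tested, 0.507% were higher and 0.89% lower. The median difference of the 29 was -0.033 (log2), against 0.007 over all genes. Apol9b rested on 1 value above background and no longer counted with a limit at the 99th percentile of the receptor probe sets, and with a 3-fold limit Gbp4 alone counted. On the lists of markers of other cells, Cdh1, listed with epithelium, was higher with TGF-beta1 (7.57 against 6.16). Ly6g, listed with neutrophils, was lower (5.30 against 6.40). Both were also above background in the control BMMCs. Of 23 immediate early genes, 1 was higher. The part of other cells and of handling in the values of the response genes was not tested.

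The 3 comparisons above share the control array, so they are not independent, and the next 2 leave it out. In intestinal against Dll1-cultured cells, 6 members were higher, Apol9b, Oasl1, Isg15, Stat2, Irf7 and Zbp1, and 2 were lower, Usp18 and Ifitm3. Stat2 was 2.68-fold and Irf7 2.29-fold higher, and Irf7 and Zbp1 no longer counted with the 99th percentile limit. Usp18 was 2.45-fold and Ifitm3 2.26-fold lower. Over the 13035 genes tested, 3.56% were higher and 4.14% lower, and the member median was 0.17 (log2), against -0.027 over all genes. Markers moved here too. In intestinal against Dll1-cultured cells, 6 of 13 T, NK and innate lymphoid, 4 of 13 macrophage and dendritic cell, 4 of 14 epithelial, 1 of 6 B and plasma cell and 1 of 8 stromal markers were higher. Neutrophil markers were lower for 5 of 9, eosinophil and basophil markers were lower for 4 of 8 and higher for 1, and immediate early genes were higher for 13 of 23. Their part in the values of the response genes was not tested.

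In Dll1-cultured against TGF-beta1-treated cells, no member was higher and 3 were lower, Gbp4 (3.99-fold), Stat2 (3.22-fold) and Apol9b (at least 2.34-fold). Apol9b did not count there with the 99th percentile limit. Over the 12650 genes tested, 2.19% were higher and 1.9% lower, and the member median was 0.07 (log2), against 0.017 over all genes. In the same comparison, neutrophil markers were higher for 5 of 9, eosinophil and basophil markers for 4 of 8, T, NK and innate lymphoid markers for 4 of 13 and immediate early genes for 12 of 23, and 1 of 14 epithelial markers was lower. Their part in these values was not tested.

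**Figure D4:**
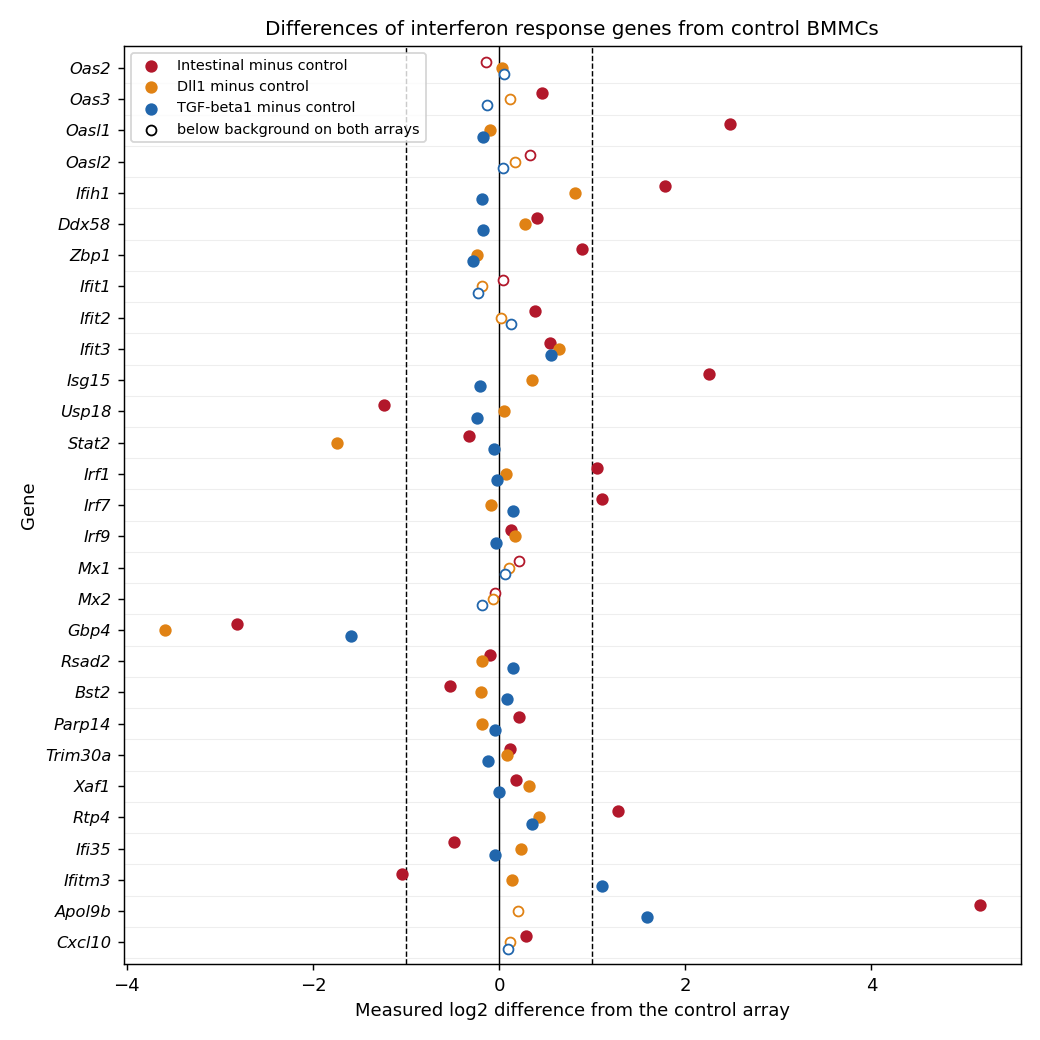
Measured log2 difference of each gene from the control array (horizontal axis), with 1 point for intestinal, Dll1-cultured and TGF-beta1-treated cells, dashed lines at 2-fold and open points for genes below background on both arrays. The intestinal points spread from -2.81 for Gbp4 to 5.16 for Apol9b, while most Dll1 and TGF-beta1 points lie between the dashed lines.

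**Figure D5:**
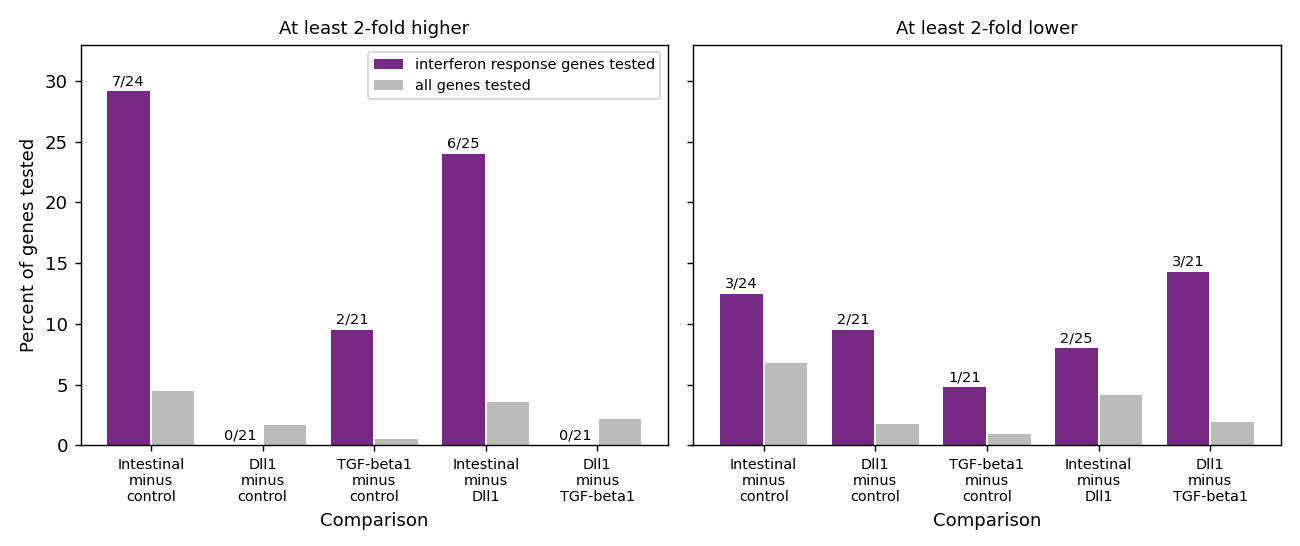
Percent of tested genes that were at least 2-fold higher (left) or lower (right) in 5 comparisons, for the interferon response genes (purple, with counts above the bars) and for all genes tested (grey), with no error bars because each group has 1 array. The tallest bars are those for higher members in intestinal cells, 7 of 24 against control and 6 of 25 against Dll1. The members were chosen with earlier results of these data known.

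A wider set of 159 genes of the interferon pathway, of which 140 were measured, was listed beside the members. Of 19 genes for the interferons themselves, 7 were above background on each array and none differed 2-fold in any comparison, and Ifnb1 and Ifng, named after their values were seen, were below background on all 4 (4.27 to 4.36 for Ifnb1 and 4.83 to 5.05 for Ifng). Interferon alpha genes are close copies whose probes can be shared. The receptor chain Ifnar1 had 7.68, 8.04, 7.87 and 7.65 and Ifnar2 8.47, 8.65, 8.66 and 8.77 on the intestinal, Dll1, TGF-beta1 and control arrays. Ifngr1 had 7.92, 7.38, 6.84 and 7.04 and Ifngr2 6.57, 6.99, 6.72 and 6.74 in the same order. Of 9 receptor and kinase genes, Tyk2 alone passed 2-fold, with 7.60 in intestinal cells, 7.84 with Dll1, 8.22 with TGF-beta1 and 8.66 in control cells.

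Of 6 inhibitors of the pathway, all tested, 2 were lower in intestinal than in control cells and none was higher, where 6.74% of all genes were lower and 4.47% higher. A list of this size says little beyond its named genes. Socs1, which blocks the receptor kinases, had 6.94 there, against 9.61 with Dll1, 9.12 with TGF-beta1 and 9.25 in control cells, so it was 4.96-fold below control and 6.34-fold below the Dll1 array. Ptpn2, a phosphatase that acts on Jak1, had 6.75, against 8.13, 7.98 and 8.25 in the same order, 2.83-fold below control and 2.62-fold below the Dll1 array. Of 15 sensors and adaptors that start interferon production, the kinase Ikbke was lower in intestinal cells (2.06-fold below control) and none was higher in any comparison.

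Among 53 other effectors, 37 were tested in intestinal against control cells, and 3 were higher and 2 lower, where 4.47% of all genes were higher and 6.74% lower. Apol9a (6.53-fold), Epsti1 (2.20-fold) and the large E3 ligase Rnf213 (2.06-fold) were the higher ones, and Ifitm1 and the Schlafen gene Slfn2 (2.47-fold) the lower ones. With Dll1, Lgals3bp, a secreted galectin-binding protein, was 2.14-fold higher than in control cells, and Ifitm1 and the DNA sensor-like gene Mndal were lower, Mndal by 2.89-fold. Mndal had 7.25 in intestinal cells, 5.15 with Dll1, 6.35 with TGF-beta1 and 6.68 in control cells, lowest with Dll1 as Stat2 was. Its Dll1 value lies just above that array's limit of 5.13, unlike that of Stat2 (6.70), so its folds against that array are held down by the background. With TGF-beta1 the checkpoint ligand Cd274 was 2.04-fold lower than in control cells. In intestinal against Dll1-cultured cells, Apol9a was 7.60-fold, Mndal 4.28-fold and the death ligand Tnfsf10 2.17-fold higher, and Slfn2 was 3.17-fold lower. In Dll1-cultured against TGF-beta1-treated cells, Cd274 was 3.10-fold higher, and Mndal (2.30-fold) and Ifitm1 (2.07-fold) were lower.

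Among 13 other GTPases, 11 of them tested, Gbp3 was higher and Gbp10 and Irgm2 (2.26-fold) were lower in intestinal than in control cells. Against the Dll1 array, Gbp3 was 2.09-fold higher and Irgm2 2.59-fold lower in intestinal cells, and Gbp10 was 2.06-fold lower with Dll1 than with TGF-beta1. Class I antigen presentation genes, which interferons raise, split as well. Of 15 measured, the trimming peptidase Erap1 was 2.75-fold higher and the peptide transporter part Tap2 2.83-fold lower in intestinal than in control cells, and the other 13 did not pass 2-fold there. Tapbp, which loads peptide, was 2.11-fold lower in intestinal than in Dll1-cultured cells. None of 7 measured interferon gamma targets and of 3 other IRF genes passed 2-fold in any comparison. However, 4 of these targets and 1 of these IRF genes were below background on every array, so they were never tested. Irf8, named after its value was seen, was above background in intestinal cells alone (5.76), at least 1.57-fold above control. In all, of 100 pathway genes tested in intestinal against control cells, 5 were higher and 9 lower, near the 4.47% and 6.74% of all genes. With Dll1 against control, 1 of 98 was higher and 3 lower, where all genes gave 1.64% and 1.78%. With TGF-beta1 against control, 0 of 94 were higher and 1 lower, where all genes gave 0.507% and 0.89%. Of 99 tested in intestinal against Dll1-cultured cells, 4 were higher and 5 lower (3.56% and 4.14% of all genes), and of 97 in Dll1-cultured against TGF-beta1-treated cells, 1 was higher and 3 lower (2.19% and 1.9%).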

How the data were processed

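Values for 33793 probe sets on 4 arrays were taken from the deposited table, in log2 units between 4.13 and 13.14, made by the authors from cDNA amplified out of small RNA inputs, per the labels' protocols. How they were summarised and normalised, and on which build, is not given in the sources used here, so no further normalization was applied. Gene symbols came from the platform annotation: 23521 probe sets had 1 symbol, 1814 several and 8458 none, and only the first kind was used. For genes with several probe sets, the one with the highest mean was taken. The background limit was the 95th percentile of 1443 probe sets of odour, pheromone and taste receptor genes (Olfr, Vmn1r, Vmn2r, Tas1r and Tas2r symbols). With 1 array per group no test was run, and no paired analysis was made. All measured members are named. Of the other lists, up to 4 members past 2-fold in each comparison are named, and exceptions are marked. The members and lists were chosen with earlier results of these data known. The size rule was checked on made-up data. Promoters came from RefSeq (GRCm38.p6). The number of arrays limits the precision. Python 3.11.15, numpy 2.4.6, pandas 2.3.3 and matplotlib 3.10.9 were used.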

Additional observations from a re-analysis of the deposited data

Results flagged for a closer look

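Ifitm3 moved in opposite directions from the same control array, 1.10 (log2) higher with TGF-beta1 and lower in intestinal cells, at -1.04. Both values are near 2-fold, each rests on 1 array and the difference between them was not tested.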

How the results depend on the processing

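The processing was varied in 9 ways, and single-gene differences were compared in all of them but the fold limits of 1.5 and 3. Of 1015 such values, 998 moved by less than the probe-set spread. The other 17 moved by more, all after an offset of 16 was subtracted on the linear scale. No difference that counted changed direction. A change of the background limit cannot alter a measured difference, and averaging probe sets can alter only that of Ifi35. Many of the 998 outcomes were therefore fixed in advance and say nothing of stability. With array medians subtracted, the Dll1 minus control member median was -0.0038, Irf1 was lost in intestinal minus control, and Ifitm3 (Dll1 minus TGF-beta1) and Ifih1 (intestinal minus Dll1) were gained. Quantile normalization added Irf1 (intestinal minus Dll1). With the 99th percentile limit, TGF-beta1 minus control had 1 higher member. At 3-fold, 0 were higher in TGF-beta1 minus control, 4 higher and 1 lower in intestinal minus control, and 3 higher and 0 lower in intestinal minus Dll1. At 1.5-fold, 2 were higher in Dll1 minus control, 1 in Dll1 minus TGF-beta1 and 10 in intestinal minus Dll1. After the offset, 1 was higher in Dll1 minus control, 1 in Dll1 minus TGF-beta1 and 10 in intestinal minus Dll1, and the member medians were 0.44 in intestinal minus control and 0.40 in intestinal minus Dll1. The offset also gave 360 higher and 393 lower genes over the whole array for Dll1 minus control, against 209 and 227. Fold limits of 1.5 and 3 gave 628 and 953, and 85 and 42. These follow from the limits and the offset themselves, and the cause of the others was not tested. No paired analysis was possible because each group has 1 array. Members near the background limit have little signal over it, so their differences are compressed.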

Other observations

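Genes across the array whose RefSeq promoter holds the interferon motif (GAAANNGAAA on either strand) were looked at as a description, with no test. Leaving out the members, 644 such genes were measured. In intestinal against control cells, 5.4% of those tested were at least 2-fold higher and 6.53% lower, against 4.32% and 6.58% of genes without the motif. In Dll1-cultured against control cells the shares were 0.875% higher and 2.92% lower, against 1.53% and 1.66% without the motif. In TGF-beta1-treated against control cells they were 0.61% and 0.305%, against 0.449% and 0.811%. These shares rest on few genes, 19 and 23 in intestinal cells, 3 and 10 with Dll1 and 2 and 1 with TGF-beta1, and promoter motifs can be matched by chance.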
